A study of Arabidopsis thaliana with 30 samples.

Results

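The 9 RGF genes of Arabidopsis thaliana (RGF1 to RGF9), which encode the precursors of the root meristem growth factor peptides, and TPST, the gene of the tyrosylprotein sulfotransferase that modifies them, were taken by locus identifier from a table of 32753 genes and followed as 10 genes across 10 groups of 3 libraries. All plants were of the Col-0 ecotype, and the RNA came from roots of seedlings 7 days after germination, harvested after 4 h in liquid medium. In the first set, wild-type plants received 100 nM RGF1 peptide or mock. In the second, plants labelled RiD-RGI1/BAK1 and wild-type plants each received 1 µM rapamycin or mock, and in the third, plants labelled RiD-RGI5/BAK1 and wild-type plants each received 100 nM rapamycin or mock. The mock of both rapamycin sets is named DMSO in the sample titles. These transgenic plants, hereafter RGI1 line and RGI5 line, carry an engineered RGF receptor and its co-receptor BAK1 that rapamycin, a small molecule that binds 2 protein domains at once, is meant to bring together without peptide. The labels give neither the promoter that drives the engineered pair nor the number of transformants behind each line, and they do not say whether replicates were separate plantings, so that p-values measure the spread between these libraries, which may be technical.

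RGF precursors are secreted proteins from which a short peptide is cut near the C-terminal end. TPST, which acts in the Golgi, sulfates the tyrosine of an Asp-Tyr pair at the start of this peptide, and the mature peptide is then perceived by the leucine-rich repeat receptor kinases RGI1 to RGI5 together with SERK co-receptors such as BAK1. In the root tip this pathway acts through a MAP kinase cascade and stabilises the PLETHORA transcription factors that keep the meristem dividing. Other members of the family are known from lateral root initiation and gravitropism, and RGF7 from immune signalling in leaves.

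The coding stretch that gives rise to the peptide shows how alike the 9 precursors are and where they part. Each stretch below is 39 bases long, reads 5′ to 3′ on the coding strand and was taken from the RefSeq annotation of TAIR10.1. It starts at the last in-frame pair of codons for Asp and Tyr, in capitals. This pair was taken to encode the tyrosine that TPST sulfates, and no sulfation site was mapped here. RGF4 holds 2 such pairs in frame.
RGF1: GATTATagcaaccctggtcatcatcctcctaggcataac
RGF2: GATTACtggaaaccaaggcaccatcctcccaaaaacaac
RGF3: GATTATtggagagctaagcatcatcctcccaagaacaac
RGF4: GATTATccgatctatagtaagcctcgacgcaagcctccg
RGF5: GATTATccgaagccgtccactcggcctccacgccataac
RGF6: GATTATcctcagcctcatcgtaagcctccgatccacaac
RGF7: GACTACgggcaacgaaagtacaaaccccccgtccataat
RGF8: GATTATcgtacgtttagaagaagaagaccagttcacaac
RGF9: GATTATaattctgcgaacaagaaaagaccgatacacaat
The stretches were compared position by position from the Asp-Tyr codons without gaps, so that a shifted but alike run counts as different. Counted this way, only 5 of the 39 positions held the same base in all 9 genes. RGF2 and RGF3 were the closest pair, with 32 of 39 bases identical (82.1%), followed by RGF1 and RGF3 (69.2%) and RGF1 and RGF2 (66.7%). In RGF1, RGF2, RGF3, RGF5 and RGF7 the 13 codons shown run up to the stop codon, whereas 14 codons remain in RGF9, 16 in RGF6, 20 in RGF8 and 22 in RGF4. Between the spliced models of any 2 of the 10 genes, the longest run of identical bases was 14.

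In these roots RGF7 was the most abundant of the 10 transcripts and RGF9 was listed at 0 throughout. Levels were in TPM, a unit of transcript abundance that is scaled to transcript length and to the library total, so that genes can be compared. RGF7 (AT3G02240) averaged 44.9 TPM over the 30 libraries, with a lowest value of 13.0, a median of 45.9 and a highest of 71.5 TPM, and its mean lay above that of 89.7% of all genes in the table. TPST (AT1G08030) averaged 16.7 TPM (14.4 lowest, 16.5 median, 20.8 highest) and RGF3 (AT2G04025), a peptide known from meristem maintenance, averaged 16.6 TPM (8.45 lowest, 17.1 median, 21.2 highest). RGF7 ranked first among the 10 genes in 28 libraries and RGF3 in the other 2, both of them mock-treated RGI1 line roots, while second place fell to TPST in 15 libraries and to RGF3 in 15.

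A middle group of precursors followed. RGF8 (AT2G03830), whose peptide is known from lateral root initiation, averaged 10.1 TPM (6.59 lowest, 10.3 median, 14.0 highest), and RGF4 (AT3G30350) 9.97 TPM (6.03 lowest, 9.17 median, 15.2 highest). RGF2 (AT1G13620), which acts with RGF1 and RGF3 in the meristem, averaged 7.23 TPM (4.24 lowest, 7.40 median, 9.58 highest). RGF1 (AT5G60810), the gene of the peptide that was applied, was low: it averaged 3.29 TPM (1.02 lowest, 3.25 median, 5.41 highest), above 50.1% of all genes, and RGF5 (AT5G51451) averaged 2.46 TPM (1.21 lowest, 2.47 median, 3.55 highest).

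RGF6 (AT4G16515) and RGF9 (AT5G64770), whose peptides are known from gravitropism, were listed at 0 TPM almost everywhere. RGF6 had a value in 2 of 30 libraries, 0.203 TPM in mock-treated RGI1 line root replicate 1 and 0.194 TPM in mock-treated wild-type root replicate 1 of the RGF1 set, and RGF9 in none. Neither passed the filter of at least 1 TPM in at least 3 libraries of a set, so 8 of the 10 genes were tested in each set. Read counts are not part of the table, so the depth behind a value of 0 is unknown, and a low level of either transcript is not excluded by it.

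**Figure D1:**
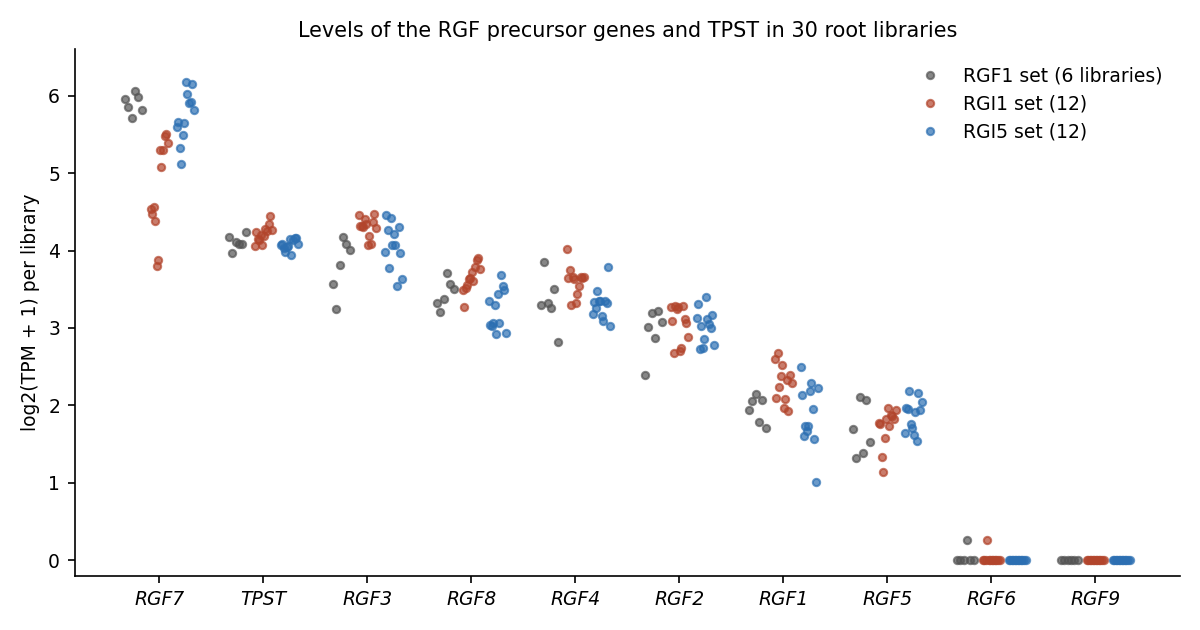
Level of each of the 10 genes in each of the 30 libraries, as log2(TPM + 1) on the vertical axis, with 1 point per library and colours for the 3 sets. RGF7 stands highest in 28 libraries and spreads widest, with the RGI1 set lowest, and RGF6 and RGF9 lie at 0 apart from 2 points of RGF6.

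The identity of the libraries was checked before the comparisons. The engineered receptor was high in its own line, since RGI1 stood at 204.2 ± 4.7 TPM in the mock-treated RGI1 line and 31.7 ± 1.54 TPM in its wild type, and RGI5 at 47.0 ± 1.48 TPM in the mock-treated RGI5 line and 2.85 ± 0.521 TPM in its wild type (SD, n = 3 each); a native and an engineered copy cannot be told apart in these values. All 6 root tissue markers (SHR, SCR, PIN2, COBL9, CASP1, WOX5) and all 4 root cap markers (SMB, BRN1, BRN2, FEZ) were above 0 in at least 1 library of every group. So were all 5 markers of green shoot tissue (RBCS1A, RBCS3B, CAB1, CAB3, LHCB2.1), so presence alone cannot tell root from shoot here. Some lay near 0, such as FEZ (mean 0.60 TPM over the 30 libraries) and RBCS3B (0.37 TPM). In bulk roots a lower level can mean fewer cells of the expressing type or less RNA per cell, and these cannot be told apart.

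The largest difference of any of the 10 genes in the 9 comparisons separated the RGI1 line from wild type without rapamycin. RGF7 stood at 19.9, 13.0 and 13.7 TPM in mock-treated RGI1 line roots, against 43.6, 44.3 and 41.0 TPM in mock-treated wild-type roots of the same set. Every wild-type library was thus above every library of the line, with means of 15.5 ± 3.81 TPM in the line and 43.0 ± 1.73 TPM in wild type (SD, n = 3 each). RGF7 fell by 1.44 on the log2(TPM + 1) scale (SE 0.12, adjusted p = 1.85e-05, limma with Benjamini-Hochberg adjustment over 19634 genes), and it ranked 43 of those genes by p. The estimate stayed between -1.62 and -1.24 under all 8 alternative settings and all 6 fits that left out a library, and it was called in each.

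Among the 8 genes tested in that comparison, 2 were called, both lower, against a background of 16.5% of all genes called (2% higher and 14.5% lower). The split of the background depends on the scaling: 393 of 3239 called genes were higher as deposited, against 729 of 1693 after median-ratio scaling and 772 of 1796 after quantile normalization, which moved the median of all genes from -0.09 to 0.01. Without 1 library at a time, 1559 to 2826 genes were called. In 5 of the 8 genes the libraries of line and wild type did not overlap (4 below and 1 above), against 39.4% of all genes (34.2% below and 5.12% above). Neither count of these genes stands far from its background.

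TPST was the other gene called. Its level was 16.5, 17.4 and 15.8 TPM in mock-treated RGI1 line roots and 19.4, 20.8 and 18.3 TPM in mock-treated wild-type roots, so that the groups did not overlap but lay close. It fell by 0.22 (SE 0.06, adjusted p = 0.0380, limma), beside a median of -0.09 over all genes. This call was lost after median-ratio scaling (-0.11, adjusted p = 0.225, limma), after quantile normalization (-0.10, adjusted p = 0.259, limma) and without any 1 of 5 of the 6 libraries (adjusted p up to 0.147, limma), the exception being wild-type replicate 3.

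The other precursors differed less between the RGI1 line and wild type. RGF8 stood at 10.8, 11.4 and 11.5 TPM in the mock-treated line and 13.7, 14.0 and 12.5 TPM in mock-treated wild type, a difference of -0.23 (SE 0.08, adjusted p = 0.0568, limma) without overlap. RGF5 stood at 1.21, 1.98 and 2.53 TPM in the line and 2.64, 2.54 and 2.84 TPM in wild type, again without overlap (-0.36, adjusted p = 0.146, limma). RGF2 lay the other way, at 8.73, 8.48 and 8.64 TPM in the line and 7.63, 7.35 and 6.38 TPM in wild type (0.25, adjusted p = 0.309, limma). None of these passed the test. The summed level of the 9 precursors was 71.7 ± 0.637 TPM in the mock-treated line and 101 ± 4.22 TPM in mock-treated wild type, and without RGF7 it was 56.1 ± 3.34 and 58.3 ± 2.55 TPM in the line and wild type (SD, n = 3 each). RGF7 thus made up 21.6 ± 5.16% of the summed precursor level in the mock-treated line and 42.5 ± 0.372% in mock-treated wild type.

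Several values of the whole libraries moved with this contrast. Summed green shoot markers stood at 37.7 to 48.1 TPM in mock-treated RGI1 line roots, against 17.1 to 20.5 TPM in wild type. Of the 3 of these markers tested, RBCS1A (1.04) and CAB1 (1.23) were called higher, and 1 lay lower without a call. RBCS1A and CAB1 held most of the sum, with means of 17.1 and 15.5 TPM over the 30 libraries. Root cap markers summed to 20.3 to 22.2 TPM in the line and 24.3 to 25.3 TPM in wild type, and root tissue markers to 216 to 223 TPM in the line and 236 to 267 TPM in wild type, with the auxin transporter gene PIN2 called lower (-0.36). CASP1, with a mean of 156 TPM over the 30 libraries, held most of the root tissue sum. All 6 root tissue markers lay lower, with a median of -0.13 beside -0.09 over all genes. A single abundant transcript, AT1G15405, took 10.6 to 11.2% of each library of the line and 6.21 to 7.48% of each wild-type library. The part of these values in the RGF7 and TPST differences was not tested.

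**Figure D2:**
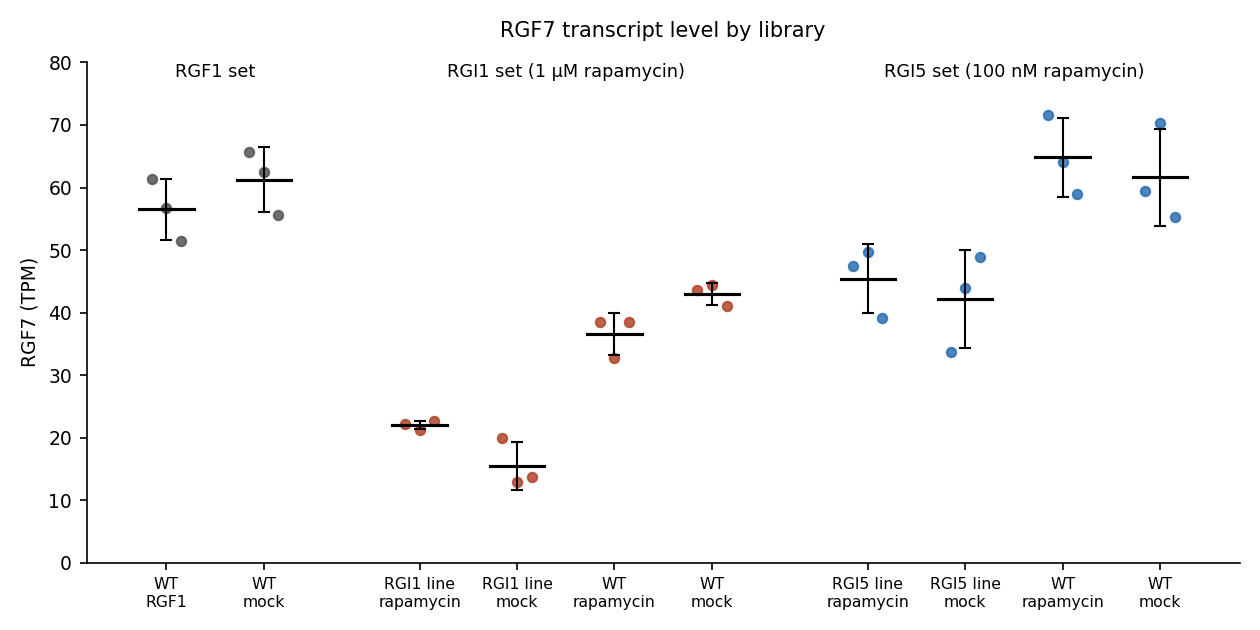
RGF7 level in TPM (vertical axis from 0) in each library of the 10 groups, with 1 point per library, horizontal bars for group means and error bars for the SD (n = 3 each). The RGI1 line lies lowest, at 13.0 to 22.6 TPM with or without rapamycin, and RGF1 peptide and mock overlap in the RGF1 set.

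Rapamycin at 1 µM was first set against mock within the RGI1 line. This contrast holds any effect of the compound itself beside that of bringing the engineered RGI1 and BAK1 together. RGF7 stood at 22.2, 21.3 and 22.6 TPM in rapamycin-treated RGI1 line roots, against 19.9, 13.0 and 13.7 TPM in mock-treated roots of the line. All rapamycin libraries were above all mock libraries, though mock replicate 1 came within a few TPM of them. RGF7 rose by 0.50 (SE 0.12, adjusted p = 0.0379, limma), and it was the 1 gene called of the 8 tested, against a background of 4.05% (2.56% higher and 1.49% lower). By scaling, 503 of 796 called genes were higher as deposited and 391 of 751 after median-ratio scaling.

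This call sat close to the threshold. It was lost in 5 of 8 alternative settings (adjusted p 0.0517 to 0.0907, limma) and in 5 of the 6 fits without a library. The value was 0.40 (adjusted p = 0.146, limma) without mock replicate 3 and 0.43 (adjusted p = 0.156, limma) without mock replicate 4, and without any 1 of the rapamycin libraries the adjusted p was 0.0768 to 0.102 (limma). In wild type the same dose gave 38.5, 32.7 and 38.5 TPM of RGF7, against 43.6, 44.3 and 41.0 TPM with mock, a difference of -0.23 (adjusted p = 0.80, limma). The response of the line minus that of wild type was 0.73 (SE 0.17, unadjusted p = 0.000995, adjusted p = 0.0656, limma), and without mock replicate 1 of the line it was 0.92 (adjusted p = 0.0017, limma). In that test of the difference between responses none of the 8 genes was called and 3 had an unadjusted p under 0.05, against 1.25% of all genes called (0.82% higher and 0.428% lower) and 11.8% with an unadjusted p under 0.05.

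RGF8 and RGF4 lay on opposite sides in the rapamycin-treated RGI1 line, but neither passed the test. RGF8 stood at 10.3, 8.63 and 10.4 TPM with rapamycin and 10.8, 11.4 and 11.5 TPM with mock in the line, without overlap (-0.19, adjusted p = 0.244, limma). RGF4 stood at 15.2, 11.5 and 12.4 TPM with rapamycin and 8.82, 11.6 and 11.4 TPM with mock in the line, where the groups overlapped (0.28, adjusted p = 0.222, limma). In wild type RGF4 stood at 9.03, 9.82 and 10.7 TPM with rapamycin and 11.6, 11.5 and 11.6 TPM with mock, and the difference between the responses of line and wild type was 0.50 (SE 0.15, adjusted p = 0.179, limma). RGF3 and TPST did not separate: RGF3 was at 21.1, 18.9 and 18.9 TPM with rapamycin and 18.8, 20.3 and 19.4 TPM with mock, and TPST was at 15.7, 18.0 and 16.7 TPM with rapamycin and 16.5, 17.4 and 15.8 TPM with mock. In all, 3 of the 8 genes had an unadjusted p under 0.05, against 15.6% of all genes, and 2 had groups without overlap (1 above and 1 below), against 19.9% of all genes without overlap (13.7% above and 6.17% below). Beside these, summed green shoot markers overlapped, at 34.3 to 57.0 TPM with rapamycin and 37.7 to 48.1 TPM with mock, whereas root cap markers did not, at 23.1 to 24.0 TPM with rapamycin and 20.3 to 22.2 TPM with mock. The part of the root cap markers in these values was not tested.

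Applied RGF1 peptide gave no call among the 8 genes in wild-type roots. The unadjusted p was under 0.05 for 2 of them, against 0.14% of all genes called at the adjusted threshold (27 of 19274; 0.0778% higher and 0.0623% lower) and 10.1% at an unadjusted p under 0.05. Both were precursors that lay lower with the peptide. RGF3 stood at 10.9, 8.45 and 13.1 TPM in RGF1-treated roots, against 17.0, 15.9 and 15.1 TPM in mock-treated roots, with means of 10.8 ± 2.32 and 16.0 ± 0.997 TPM in treated and mock roots (SD, n = 3 each). The groups did not overlap, and the difference was -0.54 (SE 0.14, unadjusted p = 0.0034, adjusted p = 0.249, limma), with an adjusted p of 0.141 to 0.560 over all alternatives.

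RGF8 was the other. Its level was 9.01, 8.27 and 9.35 TPM in RGF1-treated roots and 12.03, 10.8 and 10.3 TPM in mock-treated roots, without overlap (-0.29, SE 0.09, adjusted p = 0.362, limma). That made 2 of 8 genes with separate groups, both below, against 15.6% of all genes (3.33% above and 12.3% below). The gene of the applied peptide itself, RGF1, stood at 2.85, 3.14 and 3.45 TPM with peptide and 2.46, 3.18 and 2.27 TPM with mock, and the groups overlapped (0.19, adjusted p = 0.674, limma). RGF7 also overlapped, at 61.3, 56.7 and 51.5 TPM with peptide and 65.7, 62.5 and 55.5 TPM with mock (-0.11, adjusted p = 0.695, limma). TPST stood at 17.0, 14.7 and 16.2 TPM with peptide and 15.9, 16.0 and 17.8 TPM with mock, and RGF4 at 8.79, 13.5 and 9.02 TPM with peptide and 8.59, 10.3 and 6.03 TPM with mock. The summed level of the 9 precursors was 98.6 ± 0.722 TPM with peptide and 109 ± 8.96 TPM with mock (SD, n = 3 each). Root tissue markers summed to 213 to 245 TPM with peptide and 248 to 276 TPM with mock, a sum held mostly by CASP1. Of the 6 markers, 2 lay above and 4 below, and none was called. Their median was -0.06, beside -0.05 over all genes. The part of these markers in the lower RGF3 and RGF8 values was not tested.

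**Figure D3:**
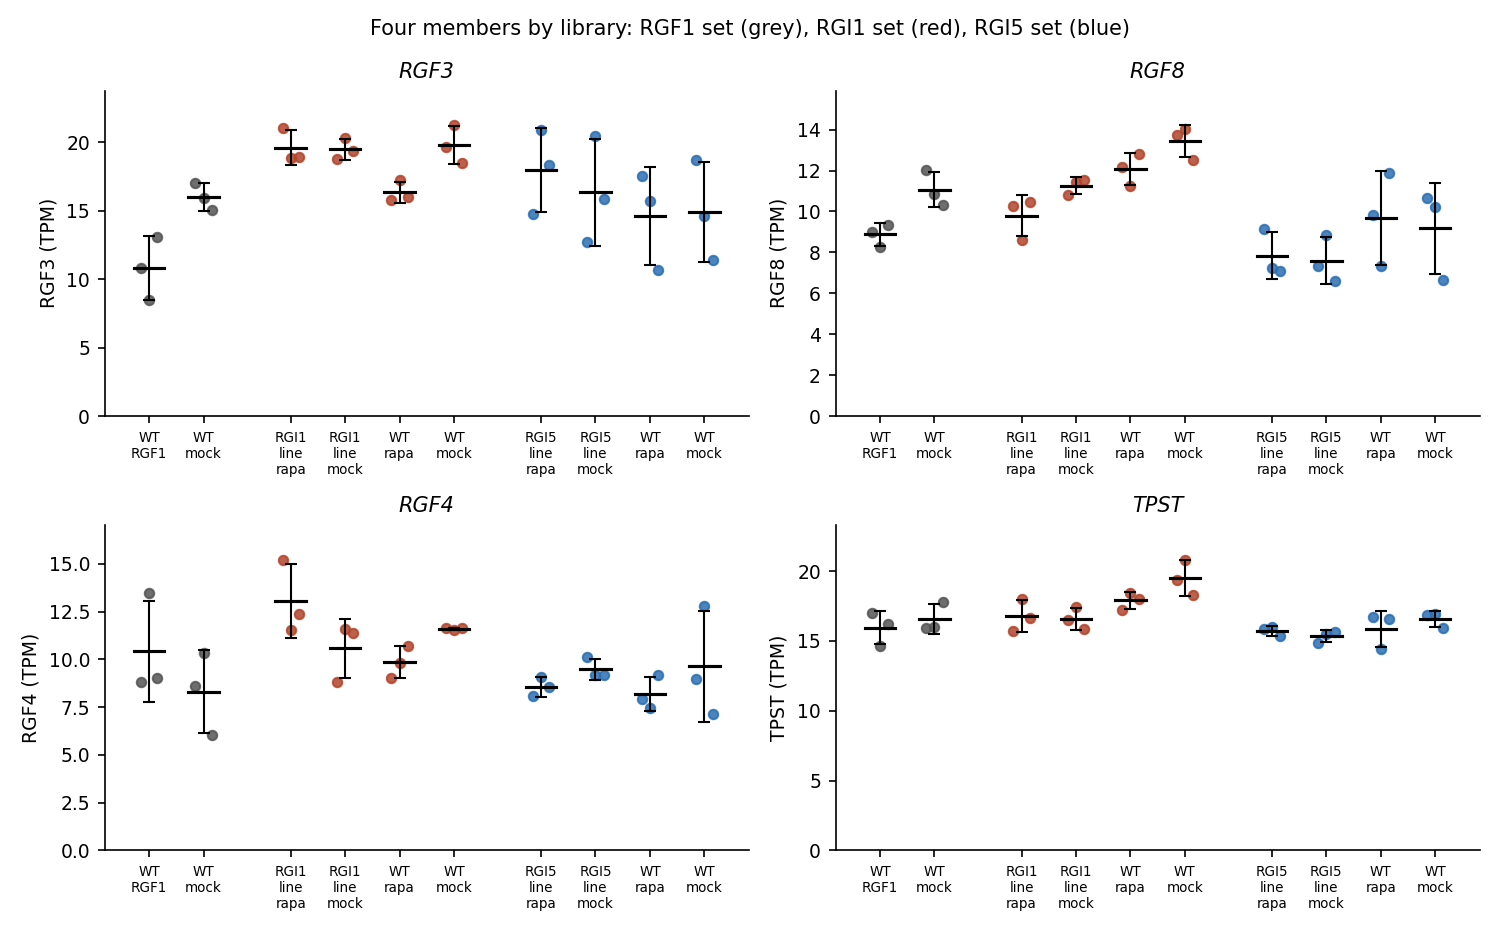
Levels in TPM (vertical axes from 0) of RGF3, RGF8, RGF4 and TPST in each library of the 10 groups, with 1 point per library, bars for means and error bars for the SD (n = 3 each); rapa stands for rapamycin. RGF3 lies at 8.45 to 13.1 TPM with RGF1 peptide, below its mock at 15.1 to 17.0 TPM, and TPST keeps to 14.4 to 20.8 TPM throughout.

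Rapamycin by itself was followed in wild-type roots, which lack the engineered pair. With 1 µM, none of the 8 genes was called and 1 had an unadjusted p under 0.05, and none of all genes was called (0%; 6.57% at an unadjusted p under 0.05). That gene was RGF3, at 15.8, 17.2 and 16.0 TPM with rapamycin and 19.7, 21.2 and 18.5 TPM with mock, without overlap (-0.26, SE 0.06, unadjusted p = 0.0016, adjusted p = 0.498, limma). RGF4 and RGF7 lay below their mock in every library too, which made 3 of 8 genes with separate groups, against 11.3% of all genes (4.52% above and 6.81% below). All 8 estimates were negative, with a median of -0.13 beside -0.01 over all genes, and they share the same 6 libraries.

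With 100 nM in wild type, none of the 8 genes was called and 1 had an unadjusted p under 0.05, against 0.00509% of all genes called and 7.54% with an unadjusted p under 0.05. RGF5 stood at 2.06, 2.77 and 1.90 TPM with rapamycin and 3.45, 2.82 and 3.13 TPM with mock (-0.36, adjusted p = 0.650, limma), and it was the 1 gene of 8 without overlap, against 12.1% of all genes (5.31% above and 6.75% below). RGF1 had the largest estimate there, 0.55, but with an SE of 0.27 (adjusted p = 0.70, limma) and overlapping groups, at 3.56, 3.89 and 2.88 TPM with rapamycin and 1.95, 1.02 and 3.66 TPM with mock. The 2 doses were given in different sets and are not compared here.

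In the RGI5 line, 100 nM rapamycin gave no call among the 8 genes and none had an unadjusted p under 0.05. No gene of the whole table was called (0%), and 11.1% had an unadjusted p under 0.05. RGF7 stood at 47.5, 49.7 and 39.1 TPM with rapamycin and 33.6, 43.9 and 48.9 TPM with mock in the line (0.12, adjusted p = 0.785, limma). Its groups overlapped widely. RGF4 was the 1 gene of 8 with separate groups, at 8.06, 9.10 and 8.54 TPM with rapamycin and 10.1, 9.17 and 9.17 TPM with mock (-0.13, adjusted p = 0.779, limma), against 18.4% of all genes (15.3% above and 3.14% below). RGF3 spread from 14.8 to 20.9 TPM with rapamycin and from 12.7 to 20.5 TPM with mock. The difference between the responses of the RGI5 line and wild type gave no call and no unadjusted p under 0.05 among the 8 genes, against 0% of all genes called and 10.8% with an unadjusted p under 0.05.

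Without rapamycin RGF7 also lay lower in the RGI5 line than in its wild type, but the difference did not pass the test. RGF7 stood at 33.6, 43.9 and 48.9 TPM in mock-treated RGI5 line roots and 59.4, 70.2 and 55.3 TPM in mock-treated wild-type roots, and the groups did not overlap. The difference was -0.55 (SE 0.14, unadjusted p = 0.00183, adjusted p = 0.117, limma), and it passed where all 30 libraries shared 1 fit (adjusted p = 0.0258, limma). TPST was the other gene with separate groups, at 14.8, 15.5 and 15.7 TPM in the line and 16.9, 16.9 and 15.9 TPM in wild type (-0.10, adjusted p = 0.554, limma). These were 2 of 8 genes, against 20.6% of all genes without overlap (5.19% above and 15.4% below), while 0 of 8 were called and 1 had an unadjusted p under 0.05, against 0.438% of all genes called (0.0865% higher and 0.351% lower) and 13.9% with an unadjusted p under 0.05. RGF7 made up 48.2 ± 4.96% of the summed precursor level in the mock-treated RGI5 line and 57.3 ± 2.97% in its wild type (SD, n = 3 each). Summed green shoot markers stood at 39.7 to 65.1 TPM in the mock-treated line and 27.6 to 42.2 TPM in wild type, and root tissue markers, which did not overlap, at 254 to 286 TPM in the line and 166 to 238 TPM in wild type. Of the 6 root tissue markers, 5 lay above and 1 below, and none was called. Their median was 0.10, beside -0.05 over all genes. The part of these marker values in the RGF7 value was not tested. Whether the 2 lines differ from each other in RGF7 was not tested, since they belong to different sets.

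**Figure D4:**
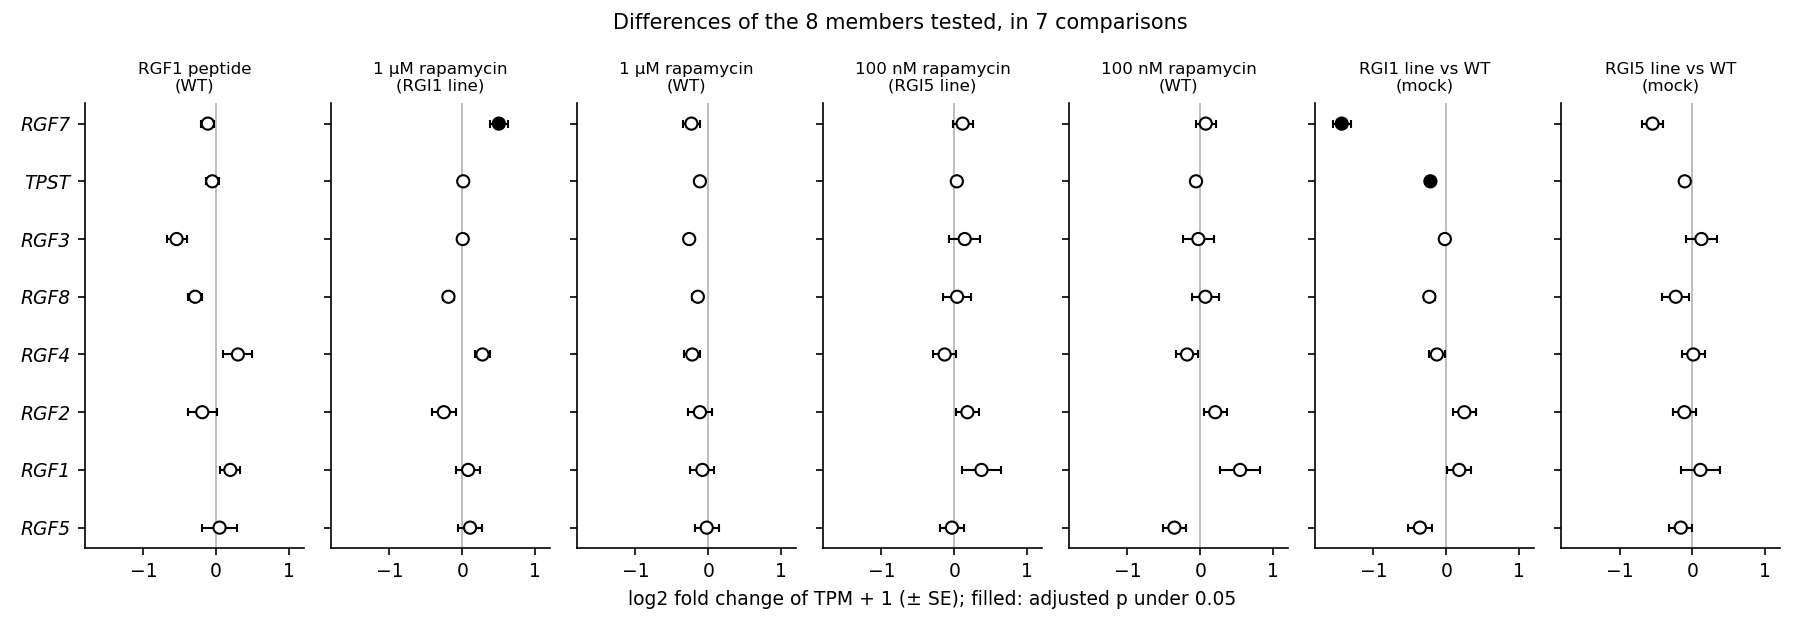
Log2 fold changes of TPM + 1 with their SE for the 8 genes tested, in 7 comparisons of 3 against 3 libraries, where a filled point has an adjusted p under 0.05 (limma). Filled points are RGF7 with 1 µM rapamycin in the RGI1 line (0.50) and RGF7 (-1.44) and TPST (-0.22) in the RGI1 line against wild type.

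Across the 10 groups RGF7 varied most. Its highest group mean was 4.18 times its lowest, against 2.07 times for RGF1, 1.83 for RGF3, 1.77 for RGF8, 1.64 for RGF5, 1.60 for RGF4, 1.36 for RGF2 and 1.27 for TPST. In order of RGF7 level, rapamycin-treated wild type of the RGI5 set came first (64.8 ± 6.32 TPM), followed by mock-treated wild type of the RGI5 set (61.6 ± 7.73 TPM), mock-treated wild type of the RGF1 set (61.2 ± 5.19 TPM) and RGF1-treated wild type (56.5 ± 4.94 TPM). The rapamycin-treated RGI5 line followed (45.4 ± 5.57 TPM), then mock-treated wild type of the RGI1 set (43.0 ± 1.73 TPM), the mock-treated RGI5 line (42.2 ± 7.78 TPM) and rapamycin-treated wild type of the RGI1 set (36.6 ± 3.34 TPM), and the RGI1 line came last with rapamycin (22.0 ± 0.690 TPM) and with mock (15.5 ± 3.81 TPM; SD, n = 3 each). Neighbours in this order had separate ranges at 3 of 9 steps: RGF1-treated wild type and the rapamycin-treated RGI5 line, rapamycin-treated wild type of the RGI1 set and the rapamycin-treated RGI1 line, and the rapamycin-treated and mock-treated RGI1 line. For RGF4 1 of 9 steps was separate, and for RGF1, RGF2, RGF3, RGF5, RGF8 and TPST none was. The mock-treated wild types of the 3 sets are all labelled mock, but the sample titles name DMSO only in the rapamycin sets. Their RGF7 means ranged from 43.0 to 61.6 TPM, so levels are set side by side across sets without a test.

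RGF1 and RGF4 each had 2 transcript models in the table, and their values were summed. The first model of RGF1 held a median of 83.3% of its level over the 30 libraries, with a range of 24.2 to 100%, and the first model of RGF4 held 75.4%, with a range of 53.6 to 91.4%. At the few TPM of RGF1 the split between models thus varied widely, and only the sums were tested. The other 8 genes had 1 model each.

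Of 20 genes for RGF perception and signalling (the RGI receptors, SERK co-receptors, MAP kinase cascade, RITF1, UBP12, UBP13 and the PLETHORA genes PLT1 and PLT2), none was called with RGF1 peptide in wild type, against 0.14% of all genes. With rapamycin in the RGI1 line 1 was called, against 4.05% of all genes. That gene was SERK4, a co-receptor kinase, at 9.48 ± 0.188 TPM with rapamycin and 7.49 ± 0.152 TPM with mock (0.30, adjusted p = 0.0153, limma). This call was lost without mock replicate 1 or 4 or rapamycin replicate 2 of the line, with an adjusted p of up to 0.0680 (limma), and in the fit of all 30 libraries. In the mock-treated RGI1 line against wild type 2 of the 20 were called higher and 8 lower, against 2% and 14.5% of all genes, with a median of -0.22 beside -0.09 over all genes. Once scaled by median ratios, 2 of the 20 lay higher and 4 lower past the threshold, against 3.71% and 4.91% of all genes, and after quantile normalization the counts were the same, against 3.93% and 5.22%. The 2 higher, with or without scaling, were the engineered RGI1 (2.65) and BAK1 (1.76). The line carries this pair by design, so the count of higher genes says nothing about the rest of the list. The lower ones included MKK5, a MAP kinase kinase of the cascade, at 6.24 ± 0.321 TPM in the line and 8.92 ± 0.890 TPM in wild type (-0.45, adjusted p = 0.0042, limma). SERK4 was also among them (-0.31, adjusted p = 0.0063, limma). In the RGI5 line against wild type 2 of the 20 were called, where 0.438% of all genes were. These were the engineered RGI5 (3.65) and BAK1 (0.94), which that line carries by design. No other gene of the list was called there.

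TPST also sulfates other plant peptides, among them the phytosulfokines (PSK), which are short growth-promoting peptides, and the PSY and CIF peptides. Of 19 genes listed for these peptides, their receptors and processing, 15 were tested. With 1 µM rapamycin in the RGI1 line 2 were called, both higher, against 2.56% of all genes higher and 1.49% lower. PSK5 stood at 73.7, 73.5 and 75.7 TPM with rapamycin and 41.3, 46.5 and 40.2 TPM with mock, a rise of 0.79 (SE 0.09, adjusted p = 0.000340, limma). PSK4 stood at 270, 322 and 215 TPM with rapamycin and 146, 158 and 169 TPM with mock, a rise of 0.75 (SE 0.13, adjusted p = 0.00565, limma) whose call was lost in the fit of all 30 libraries. Neither pair of groups overlapped. The responses of line and wild type differed for both, by 0.83 for PSK5 (adjusted p = 0.00703, limma) and by 0.98 for PSK4 (adjusted p = 0.0224, limma), where the adjusted p of PSK4 rose above the threshold in 6 of 12 fits without a library, to at most 0.0582 (limma), and it was called in 5 of 8 alternative settings. In the fit of all 30 libraries neither difference was called, with an adjusted p of 0.107 for PSK5 and 0.220 for PSK4 (limma). Without a filter on low values that of PSK4 was not called either. After scaling by either method 2 of the 15 were called higher in the line with rapamycin and 1 lower. Of all genes, 1.99% were then called higher and 1.83% lower after median-ratio scaling, and 2% and 1.85% after quantile normalization.

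In the mock-treated RGI1 line against wild type 6 of the 15 were called, all lower, against 14.5% of all genes called lower, with a median of -0.20 beside -0.09 over all genes, and 5 were called lower after either scaling, against 4.91% of all genes after median-ratio scaling and 5.22% after quantile normalization. PSK1 stood at 108 ± 2.25 TPM in the line and 153 ± 2.80 TPM in wild type (-0.49, adjusted p = 4.64e-05, limma). PSK4 stood at 158 ± 11.4 TPM in the line and 291 ± 16.6 TPM in wild type (-0.88, adjusted p = 0.000986, limma). PSY1R, a receptor kinase of this group, was also called lower (-0.51, adjusted p = 0.000293, limma), as was the precursor gene PSY3 (-0.46, adjusted p = 0.0024, limma). In the mock-treated RGI5 line against wild type 1 of 15 was called, against 0.438% of all genes, the phytosulfokine receptor gene PSKR2, at 7.59 ± 0.816 TPM in the line and 11.3 ± 0.568 TPM in wild type (-0.52, adjusted p = 0.0277, limma), a call lost in 5 of 6 fits without a library, with an adjusted p of up to 0.144 (limma), and also after quantile normalization and without a filter.

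**Figure D5:**
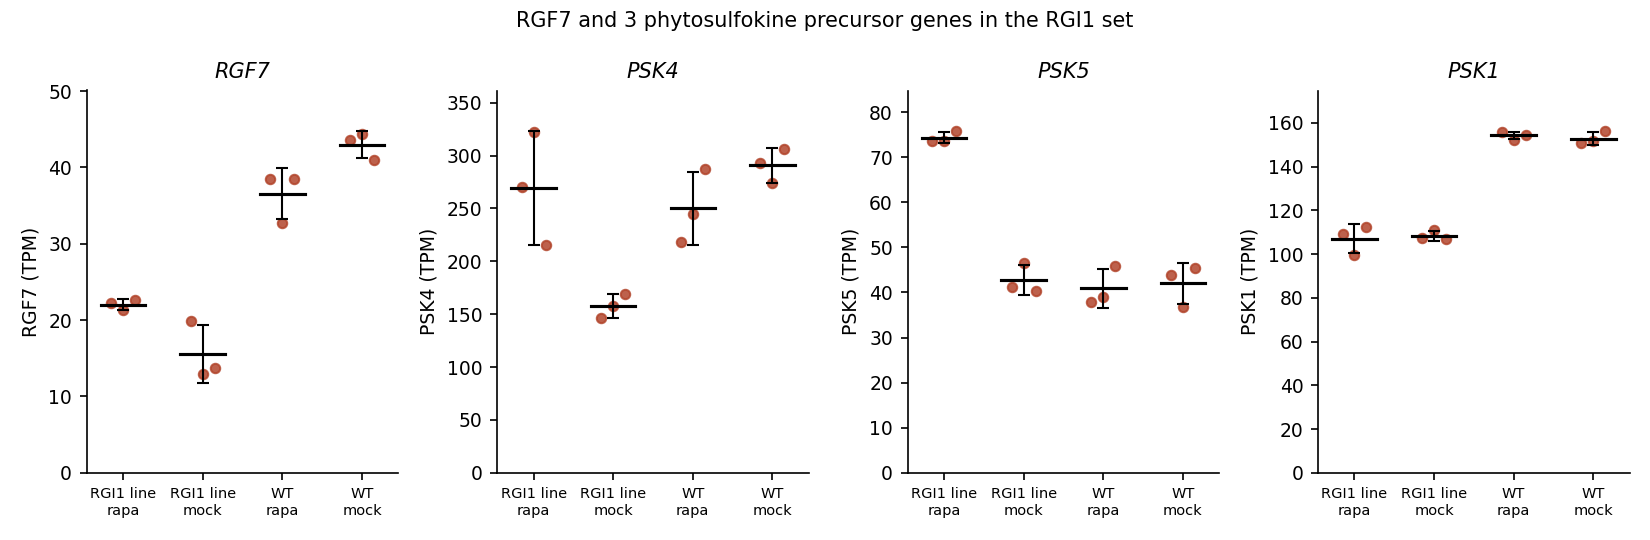
Levels in TPM (vertical axes from 0) of RGF7, PSK4, PSK5 and PSK1 in the 12 libraries of the RGI1 set, with bars for means and error bars for the SD (n = 3 each); rapa stands for rapamycin. RGF7, PSK4 and PSK1 are lower in the mock-treated line than in mock-treated wild type, and PSK4 and PSK5 are higher in the line with rapamycin than with mock.

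Genes whose level followed each of the 8 genes most closely over the 30 libraries were named by Pearson's r of log2(TPM + 1), as a description, since libraries share their set and group. For RGF7 these were AT5G48430 (0.97) and AT3G51340 (0.97), both annotated as aspartyl proteases, and AT2G42060 (0.97), with a C1 domain. For RGF3 they were AT5G39240 (0.81), VAB3 (0.75) and BRG1 (0.74), and for TPST AT1G04210 (0.79), AT3G19740 and CAND1. RGF8 was followed by AT2G30780, AT4G18440 and AT5G65440, RGF1 by AT1G47278 (0.69), NAP1;1 (0.68) and MCC1 (0.65), and RGF4 by GYRB2 (0.69), AT4G02425 (0.67) and AT3G30214 (0.67). For RGF5 the 3 genes were CDL1 (0.68), AT1G58070 (0.63) and AT1G65985 (0.62), and for RGF2 AT5G15710 (0.58), RS31a (0.54) and AT4G23840 (0.53). The values for RGF7 stood well above those of the other members. Within the 8 genes, RGF8 and TPST were the most alike (0.71), while RGF1 and RGF3 ran against RGF7 (-0.50 and -0.47).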

How the data were processed

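The deposited table holds TPM values that the authors made per transcript model, with Salmon and DESeq2 named in the submitters' processing notes. Versions, transcript annotation and genome build were not given in the sources used here. RNA was polyadenylated and libraries were stranded, per the labels' protocols. From there, the 40812 transcript models were summed to 32753 genes. Some column names differed slightly from the sample titles and were matched by their stem and number.

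Groups were compared within each set by limma (version 3.58.1 in R 4.3.3) on log2(TPM + 1) with an intensity trend, for genes with at least 1 TPM in at least 3 libraries of the set, and p-values were adjusted by Benjamini-Hochberg over all genes tested. A call is an adjusted p under 0.05. Fold changes on this scale understate the change of low genes. TPM are relative to the library total, so an abundant transcript lowers the rest. The depth of the libraries is unknown, and 18999 to 19331 genes per library had at least 1 TPM. AT1G15405 took 3.95 to 11.9% of a library. No libraries were duplicates. Settings tried in place of these were quantile normalization, median-ratio scaling, no filter, a stricter filter (mean of 5 TPM or more), other pseudocounts (0.1 and 5), a replicate block, 1 fit over all 30 libraries and leaving out each library; the procedure was tested on simulated data. All 10 genes are named, as are, from each other list, the called genes of lowest p (4 at most), the engineered receptors and BAK1, and the 3 genes most alike each member. The members and lists were chosen with earlier results of these data known. Sequences come from RefSeq (TAIR10.1), in which all 10 genes were found.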

Additional observations from a re-analysis of the deposited data

How the results depend on the processing

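Across the 72 values of the 8 genes in 9 comparisons, no call changed direction in the 1086 refits; 80 uncalled estimates changed sign. The count of members called was 1 for rapamycin in the RGI1 line, with 4.05% of all genes called. It became 0 under quantile normalization, median-ratio scaling, no filter, the replicate block and the shared fit of all 30 libraries (1.8 to 3.85% of all genes), and it ranged from 0 to 1 when libraries were left out. For the RGI1 line against wild type the count was 2 of 8, with 16.5% of all genes called. It became 1 under quantile normalization (9.15% of all genes), median-ratio scaling (8.62%) and the replicate block (12%). At a mean of at least 5 TPM it was 3 of the 6 members tested, with RGF8, against 20.5% of all genes. When libraries were left out it ranged from 1 to 3 (3 without wild-type replicate 3, against 14.4% of all genes, and 1 without any of the other 5, against 7.95 to 12.8%). For the difference of the rapamycin responses of RGI1 line and wild type the count was 0 and ranged from 0 to 1 when libraries were left out (1, RGF7, without mock replicate 1 of the line, against 1.08% of all genes). For the RGI5 line against wild type it was 0 and became 1, RGF7, in the fit of all 30 libraries, against 3.12% of all genes. The cause was not tested. Replicate numbers showed at most a weak pairing of the samples. Same-numbered libraries correlated with a median r of 0.05 in the RGI1 set and 0.04 in the RGI5 set, over 13 pairs each. For different numbers the medians were -0.01 and 0.01. In these sets 1 and 3 of 12 libraries were closest to their own number. In the RGF1 set only 2 pairs existed (-0.04 and 0.13), and 2 of 4 libraries were closest to their own number. Whether replicates were paired is not settled by these values. With the block, all genes called for rapamycin in the RGI1 line numbered 431 in place of 796, for its difference from wild type 55 in place of 245, for the RGI5 line against wild type 15 in place of 86 and for RGF1 peptide 6 in place of 27; the block also ended the calls of SERK4 with rapamycin in the RGI1 line, of the PSK4 difference between responses and of PSKR2. In the fit of all 30 libraries these 4 counts were 362, 28, 628 and 167, and 75 genes, in place of 0, were called for rapamycin in the RGI5 line and 127, in place of 0, for its difference from wild type. That last count was also 48 without mock-treated wild-type replicate 4 and 1 without mock replicate 1 of the line. Without 1 library at a time the same 4 counts ranged from 402 to 695, 116 to 258, 7 to 181 and 0 to 23. With no filter on low values the count was 150 for the difference of the RGI1 line from wild type, 6 for the RGI5 line against wild type and 6 for RGF1 peptide, and after quantile normalization 17 for RGF1 peptide. With 3 libraries a group and unknown depth, members at a few TPM, such as RGF1 and RGF5, had an SE of up to 0.27, so that small changes were not detectable.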

Other observations

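Next to RGF7 on the same chromosome lies GLV8, a further gene of the family that has no RGF number, and it was looked at after its values were seen. The whole spliced models of RGF7 and GLV8 share a run of 24 identical bases, longer than between any 2 RGF genes. The GLV8 stretch from the Asp-Tyr codons (capitals), from RefSeq (TAIR10.1) and 5′ to 3′, does not hold that whole run. Over this stretch GLV8 and RGF7 held the same base at 18 of 39 positions (46.2%).
GLV8: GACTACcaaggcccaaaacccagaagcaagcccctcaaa
GLV8 stood at 3.99, 1.66 and 5.28 TPM in mock-treated RGI1 line roots and 6.11, 10.7 and 8.11 TPM in mock-treated wild-type roots, without overlap. It fell by 1.06 (SE 0.26, adjusted p = 0.0179, limma), and the adjusted p was 0.0769 (limma) without wild-type replicate 2. RGF7 was lower in the same contrast. With rapamycin in the RGI1 line GLV8 stood at 7.47, 7.52 and 5.60 TPM, above all mock libraries of the line (0.84, adjusted p = 0.113, limma), and in the RGI5 line it stood at 7.06, 6.97 and 8.08 TPM with rapamycin and 5.09, 3.33 and 4.76 TPM with mock (0.65, adjusted p = 0.463, limma). Other neighbours of RGF7 differed less in the RGI1 line against wild type: RGP1 by -0.19 (adjusted p = 0.0362, limma), AT3G02220 by -0.07 (adjusted p = 0.544, limma) and AT3G02250 by -0.04 (adjusted p = 0.586, limma). Whether reads shared between RGF7 and GLV8 contribute to the GLV8 values was not tested. GLV9, also outside the RGF numbering, was likewise looked at after its values were seen. It stood at 3.46, 6.92 and 6.33 TPM with 100 nM rapamycin in wild type and 2.87, 3.33 and 1.38 TPM with mock (0.90, adjusted p = 0.421, limma). These groups did not overlap, as in 12.1% of all genes (5.31% above and 6.75% below). This was the largest estimate for GLV9, which was called in no comparison.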
